A study of Mus musculus with 8 samples.

Results

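The genes described here encode the enzymes and carriers that take glucose to pyruvate, bring pyruvate into the mitochondrion and oxidise its carbon. They are a set of 41 genes named by symbol, each looked up by its NCBI Gene ID among the 38920 rows of the deposited tables. All 41 were found, with 18 in glycolysis, 9 in pyruvate entry and 14 in the citric acid cycle. The cells are sorted gastric epithelium of the C57BL/6 mouse, with 4 libraries from mice on a high fat diet (HFD22, HFD23, HFD26 and HFD27) and 4 libraries labelled ND, the control mice of the series (ND15.17.18, ND16, ND19 and ND20). No genetic change is named for either group, and the sources used here give neither age, sex and length of feeding nor the marker used for sorting. Whether a library stands for 1 mouse, and whether ND15.17.18 was a pool, is not stated in the labels, so p-values measure only the spread between these libraries.

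Glycolysis splits glucose in the cytosol and yields pyruvate, which either becomes lactate through lactate dehydrogenase or enters mitochondria through the mitochondrial pyruvate carrier. There the pyruvate dehydrogenase complex makes acetyl-CoA and pyruvate carboxylase makes oxaloacetate, the pair of substrates that citrate synthase joins at the start of the citric acid cycle. Pyruvate dehydrogenase kinases switch the complex off by phosphorylation, a brake that fat oxidation is known to favour. The gastric mucosa holds parietal cells, which are packed with mitochondria that supply ATP to the proton pump.

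Levels below are log2(value + 1) after each library's linear values were divided by its median ratio to the typical row, and differences are HFD minus ND on that log2 scale. The deposited values share a common linear total of 36.9 M in every library, and the reads behind it were estimated at 16.4 to 63.2 M (exact two-sided permutation p = 0.771 between diets). In ND15.17.18 the 20 largest rows held 85.7% of that total, in ND19 59.1% and in the other 6 libraries 27.8% to 43.1%. The scaling factor of ND15.17.18 was 0.205, against 0.789 in ND19 and 1.16 to 1.59 elsewhere. The labelled cell type was checked against 5 epithelial markers (Epcam, Cdh1, Krt8, Krt18 and Krt19), whose mean level was 14.01 to 14.31 in HFD and 14.02 to 14.29 in ND.

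None of the 41 members was called between the diets. limma tested all 41 and found 0 higher and 0 lower at an adjusted p under 0.05, with 1 member at an unadjusted p under 0.05. Of all 27401 rows tested, 0.0109% were called after this scaling, and 10.5% had an unadjusted p under 0.05. The smallest limma adjusted p of a member was 0.449, that of Hk1. In 0 of the 41 members did all 4 HFD libraries lie on 1 side of all 4 ND libraries, which was so for 7.85% of all rows tested. Of the 41 differences, 25 were positive and 16 negative, with a median of 0.03, beside a median of 0.12 over all rows tested. For more abundant rows the median was lower. It was 0.06 over 13241 protein-coding rows at or above the lowest member level, and 0.02 with a minimum of 30 in all 8 libraries.

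After median-ratio scaling, the 95% interval of the difference stayed within 2-fold in either direction for 39 of the 41 and within 1.5-fold for 28. The exceptions to the wider bound were Eno2, the neuronal enolase, at -0.76 to 1.77 (log2), and Mpc2, a subunit of the mitochondrial pyruvate carrier, at -0.35 to 1.13. Among all rows tested, the interval stayed within 2-fold for 38.3%, a share that takes in many low rows. With a minimum of 30 in all 8 libraries, which kept 39 members, the interval stayed within 2-fold for 80.9% of rows. These limits hold for that scaling: on the deposited scale the interval stayed within 2-fold for 0 of the 41 members and 0 of all rows, and after quantile normalization for 38 members.

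The direction of these differences depended on the scale. On the deposited scale, where every library keeps the common total, all 41 differences were positive, their median was 0.88, and the median of all rows tested was 0.90 there. After quantile normalization 26 were positive, with a median of 0.06. Without ND15.17.18, 12 were positive, with a median of -0.10. All 25 differences that were positive with it became smaller by over 1.5 times or negative without it, and 13 of them turned negative. No member was called on the deposited scale, where 0.0584% of all rows were, and the smallest limma adjusted p was 0.504.

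**Figure D1:**
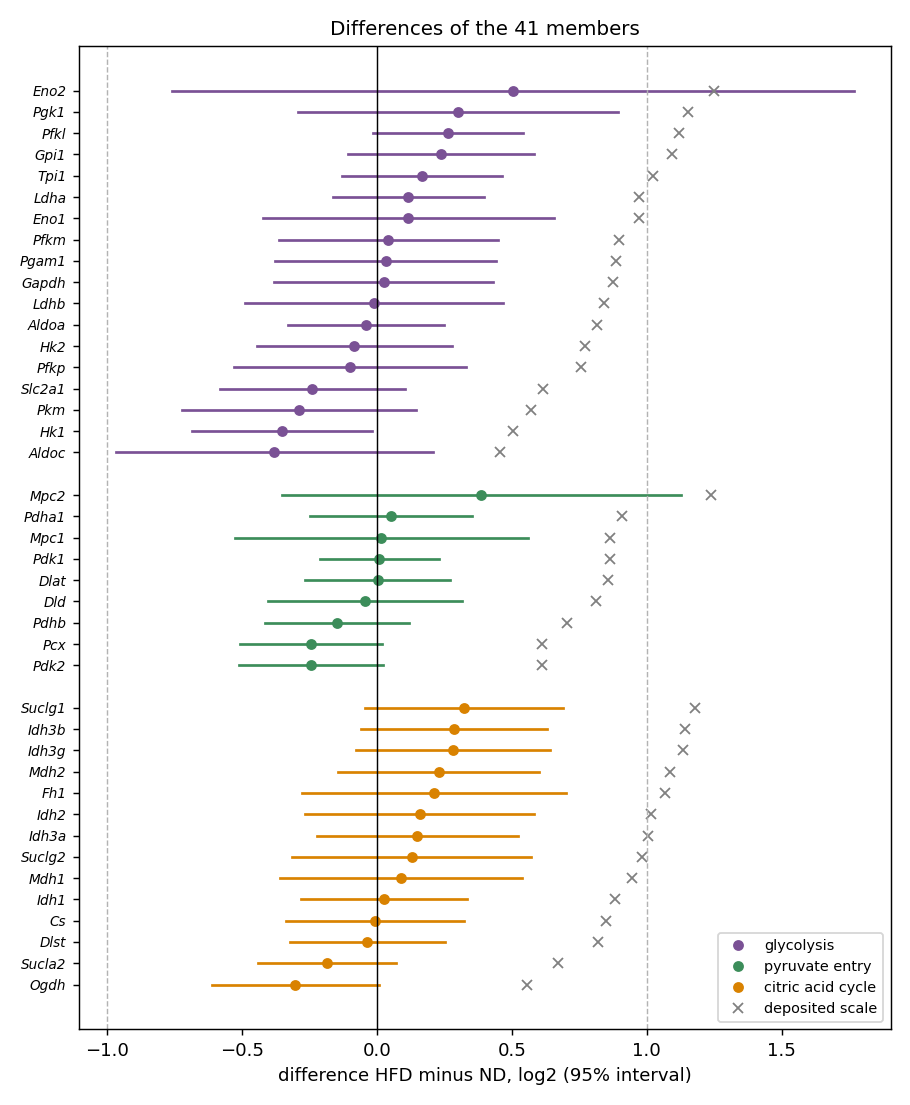
Difference HFD minus ND of each of the 41 members (x axis, log2) with its 95% interval after median-ratio scaling, grouped by stage and coloured by it. Dashed lines mark 2-fold, and grey crosses give the difference on the deposited scale, where all 41 were positive; only Eno2 and Mpc2 have an interval that passes 2-fold.

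In glycolysis the gastric epithelial libraries were led by the rows of Aldoa, Ldha and Pkm once levels were divided by transcript length, with the rows of near-identical copies left out. Mean levels per kilobase over the 8 libraries, on the log2 scale, were 12.49 for the aldolase gene Aldoa, 11.82 for the lactate dehydrogenase gene Ldha and 11.76 for the pyruvate kinase gene Pkm. Eno1 and Tpi1, the genes of enolase and triosephosphate isomerase, followed at 10.75 and 10.74 and did not differ beyond their spread between libraries (10.29 to 11.27 and 10.34 to 11.03). Ldha and Pkm also overlapped, at 11.49 to 11.96 and 11.35 to 12.38. Hk1, the general hexokinase, stood at 9.85, Pfkl, the liver-type phosphofructokinase, at 9.58, and Slc2a1, the GLUT1 glucose transporter, at 8.95. The ranges of Hk1 and Pfkl overlapped (9.49 to 10.23 and 9.23 to 9.85), and the order of their means differed between the diets. Hk1 was at 9.67 in HFD and 10.02 in ND, and Pfkl at 9.72 and 9.45. The row of Gapdh, often used as a reference gene, was 15th of 18 at 8.22. The lowest rows were Aldoc at 4.96 and Eno2 at 3.32, both known from the brain.

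**Figure D2:**
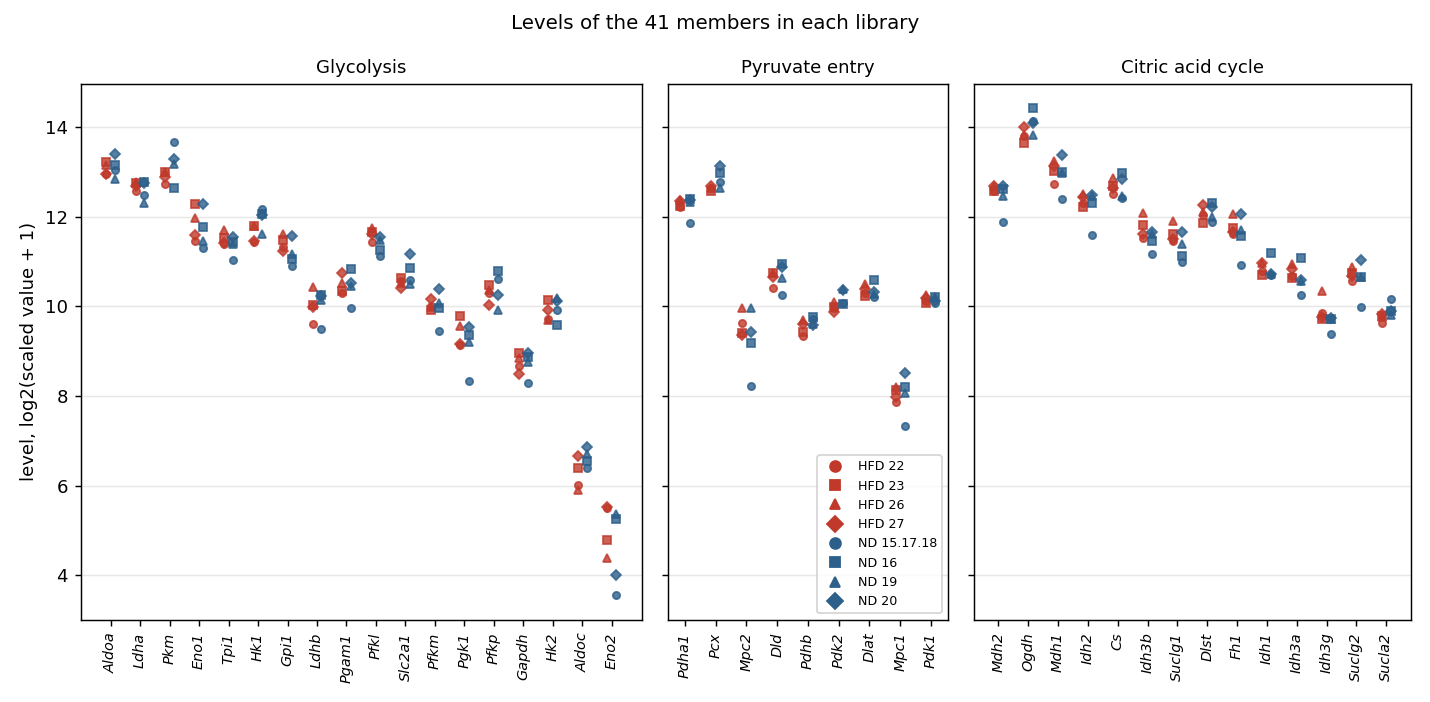
Level of each of the 41 members in each of the 8 libraries (y axis, log2(scaled value + 1), not divided by length), ordered within each stage by mean level per kilobase. Red marks are HFD and blue marks ND, one shape per library; the diets overlap for every member, and the circle of ND15.17.18 is the lowest mark for 26 of them.

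Of the 18 glycolytic members 0 were called, 10 differences were positive and 8 negative, and the median was 0.03. Hk1 (Gene ID 15275, chromosome 10, 62268855 to 62379920, mm10) stood at 11.44, 11.78, 11.79 and 11.45 in the HFD libraries and 12.18, 12.06, 11.61 and 12.03 in the ND libraries, each in the order named above. Of the ND libraries 3 lay above all 4 HFD libraries, and ND19 lay among them. The difference was -0.35 ± 0.15 (SE; limma adjusted p = 0.449, unadjusted p = 0.0401), from 11.62 ± 0.20 in HFD and 11.97 ± 0.25 in ND (SD, n = 4 each). Hk2, the insulin-responsive hexokinase, differed by -0.08 ± 0.16 (SE). The glucose transporter gene Slc2a1 (Gene ID 20525, chromosome 4, 119108745 to 119137330) was at 10.56, 10.63, 10.53 and 10.41 in the HFD libraries and 10.58, 10.84, 10.49 and 11.17 in the ND libraries. ND16 and ND20 exceeded every HFD library and the other ND libraries did not, for a difference of -0.24 ± 0.15 (SE; limma adjusted p = 0.600).

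Gpi1 and Pfkl, of the next steps, had positive differences that did not pass the test. Gpi1, which interconverts the hexose phosphates (Gene ID 14751, chromosome 7, 34201327 to 34230336), was at 11.32, 11.49, 11.61 and 11.24 in the HFD libraries and 10.90, 11.06, 11.16 and 11.57 in the ND libraries. ND20 lay among the HFD libraries and the other 3 ND libraries lay below them, for a difference of 0.24 ± 0.15 (SE; limma adjusted p = 0.601). Pfkl, which commits fructose 6-phosphate to glycolysis (Gene ID 18641, chromosome 10, 77986947 to 78009807), was at 11.44, 11.66, 11.75 and 11.61 in the HFD libraries and 11.13, 11.25, 11.48 and 11.55 in the ND libraries. HFD22 lay below ND19 and ND20, while the other HFD libraries were above all ND libraries. The difference of Pfkl was 0.26 ± 0.12 (SE; limma adjusted p = 0.492). Without ND15.17.18 the difference was 0.12 for Gpi1 and 0.16 for Pfkl. The muscle type, Pfkm (Gene ID 18642, chromosome 15, 98092589 to 98132447), was at 10.003, 9.91, 9.99 and 10.16 in the HFD libraries and 9.46, 9.97, 10.08 and 10.39 in the ND libraries. The ND libraries held both the lowest and the highest Pfkm level, and its difference was 0.04 ± 0.18 (SE; limma adjusted p = 0.941). The platelet type, Pfkp, differed by -0.10 ± 0.19 (SE).

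At the end of the pathway, Pkm (Gene ID 18746, chromosome 9, 59656576 to 59679372) was at 12.72, 12.995, 12.997 and 12.89 in the HFD libraries and 13.66, 12.63, 13.17 and 13.29 in the ND libraries. ND16 was the lowest library and the other 3 ND libraries the highest, for a difference of -0.29 ± 0.19 (SE; limma adjusted p = 0.612), or -0.16 without ND15.17.18. Ldha (Gene ID 16828, chromosome 7, 46842274 to 46855627), which makes lactate from pyruvate, was at 12.57, 12.76, 12.78 and 12.68 in the HFD libraries and 12.49, 12.77, 12.31 and 12.76 in the ND libraries. ND15.17.18 and ND19 lay below every HFD library, and ND16 and ND20 lay among them. Its difference of 0.12 ± 0.13 (SE) had a 95% interval of -0.16 to 0.40 and was 0.06 without ND15.17.18. The other glycolytic members, Aldoa, Aldoc, Tpi1, Gapdh, Pgk1, Pgam1, Eno1, Eno2 and Ldhb, had differences from -0.38 (Aldoc) to 0.50 (Eno2). The row of Eno2 rested on few reads, the equivalent of 3.18 of them in ND15.17.18.

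For several members most of the signal was assigned to other rows of the same table. Coding sequences of the members were compared with all other transcripts of the GENCODE vM21 annotation, and 15 members had at least 1 copy of 90% identity or more over at least 300 bases, 10 of them in glycolysis, 3 in pyruvate entry and 2 in the citric acid cycle. These copies, mostly processed pseudogenes, which are intron-less reinsertions of a messenger RNA, had 204 rows of their own. The method by which the authors assigned reads that match several places is not stated in the labels or tables, so the rows of a gene and its copies are uncertain. The share left in the gene's own row was 1.88% to 2.83% for Gapdh over the 8 libraries, 11.1% to 17.3% for Pgk1, 18.3% to 32.1% for Ldhb and 22.8% to 35.4% for Eno1. It was below 50% in every library for 7 members, which besides these 4 were Gpi1, Pgam1 and Suclg2.

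The pairs below are each a gene and its largest copy. The stretch shown is the gap-free one of 60 bases with the most differences in the alignment, not a typical one. Each line gives 60 bases of the coding strand, 5′ to 3′, from GENCODE vM21 transcripts, and capitals mark bases that differ within the pair. The Gapdh stretch is bases 1 to 60 of the coding sequence, that of Eno1 bases 1174 to 1233 and that of Ldhb bases 832 to 891.
Gapdh: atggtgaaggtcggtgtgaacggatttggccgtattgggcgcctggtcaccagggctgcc
Gm7336: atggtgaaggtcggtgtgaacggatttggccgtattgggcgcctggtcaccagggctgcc
Eno1: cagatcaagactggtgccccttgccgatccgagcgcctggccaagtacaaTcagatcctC
Gm4735: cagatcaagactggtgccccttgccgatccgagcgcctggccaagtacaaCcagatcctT
Ldhb: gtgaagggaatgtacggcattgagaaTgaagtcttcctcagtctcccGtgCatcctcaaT
Ldhb-ps: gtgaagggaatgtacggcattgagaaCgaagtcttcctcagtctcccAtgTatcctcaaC

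Gm7336 (chromosome 7, 51746679 to 51747902) matched Gapdh at 100% of 999 coding bases, so no read inside that stretch can tell them apart. Gapdh had 158 copies with a row, of which 71 were listed at 0 in all 8 libraries. They include Peli2, a protein-coding gene of another name, which matched at 92.4% over 877 bases. Its whole row entered the sum and the share given for Gapdh, whether or not its reads stem from the matching stretch. The own row of Gapdh was at 8.28 to 8.96, and that row and the copies of Gapdh summed to 13.89 to 14.38. Gm4735 (chromosome 2, 80837095 to 80838773) matched Eno1 at 99.6% with an identical run of 725 bases, and Ldhb-ps (chromosome 19, 21937283 to 21938567) matched Ldhb at 98.0% with its longest identical run at 148 bases. Pgk1 and Pgam1 also had copies identical over the whole coding sequence, Gm5537 and Pgam1-ps2.

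**Figure D3:**
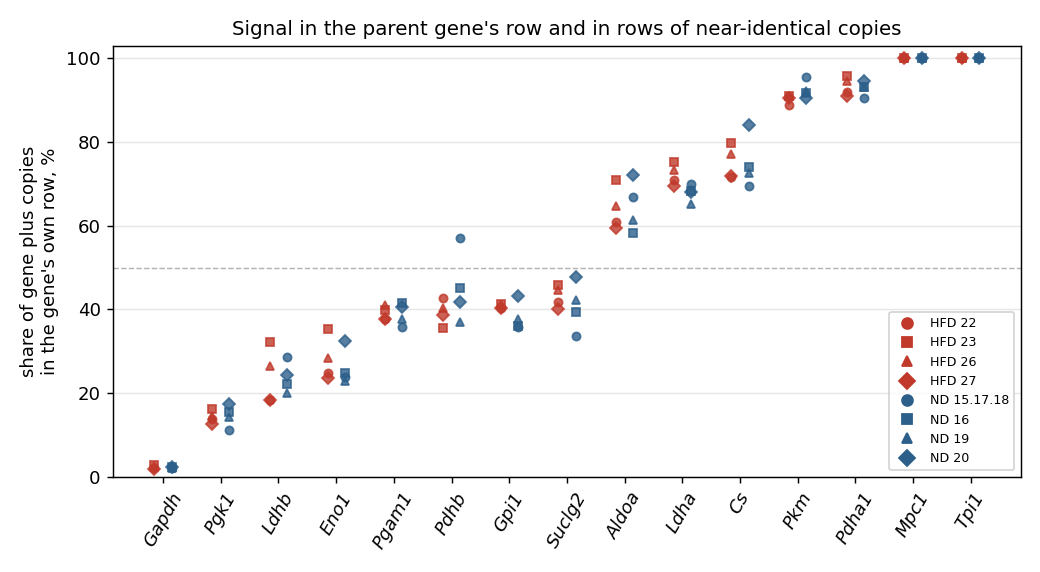
Share of the linear signal of a gene and its near-identical copies that stood in the gene's own row (y axis, percent) for the 15 members with copies, in each library (HFD red, ND blue). Gapdh lies at 1.88% to 2.83% in all 8 libraries, and Mpc1 and Tpi1 lie at 100% because their copy rows were listed at 0.

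Summing each gene with its copies, an alternative added after the data were seen, called 0 members. The largest shift was in Pdhb, from -0.15 to 0.04, followed by Eno1, from 0.12 to 0.01, and Gpi1, from 0.24 to 0.14. Pgk1 stayed at 0.32, from 0.30. For 0 of the 15 did the share in the gene's own row pass the exact permutation test between diets. That test cannot give a p below 0.0286, so after adjustment over the 15 no share could have passed on its own. The smallest exact two-sided permutation p was 0.0571 (adjusted p = 0.857), for Ldha, at 72.3% ± 2.60 in HFD and 67.9% ± 1.91 in ND (SD, n = 4 each). The level orders given per kilobase are those of the genes' own rows and leave the copies out. With copies summed, and the sum divided by the gene's own transcript length, Gapdh moved from 15th to the top of glycolysis at 13.71, followed by Aldoa at 13.14, Eno1 at 12.65, Ldha at 12.33 and Pkm at 11.89 (mean log2 level per kilobase). The leaders of pyruvate entry, Pdha1 and Pcx, and of the cycle, Mdh2, Ogdh and Mdh1, kept their order. Below them the order changed. Pdhb moved from 5th to 3rd of its stage, at 10.25, and Suclg2 from 13th to 10th, at 10.16. Per kilobase, Suclg2 then exceeded Sucla2 2.76-fold in place of 1.15-fold.

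The genes of pyruvate entry held Pdha1 and Pcx at the top and the kinase Pdk1 at the bottom. Per kilobase, Pdha1, the E1 alpha subunit of pyruvate dehydrogenase, was at 10.75 and Pcx, pyruvate carboxylase, at 10.73, with overlapping ranges of 10.34 to 10.89 and 10.54 to 11.10. The carrier subunits were at 9.36 (Mpc2) and 8.10 (Mpc1). The other subunits of the complex were at 9.31 (Dld, E3), 8.996 (Pdhb, E1 beta) and 8.34 (Dlat, E2), and the kinases at 8.93 (Pdk2) and 7.78 (Pdk1).

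Of these 9 members 0 were called, 5 differences were positive and 4 negative, and the median was 0.0032. Pcx (Gene ID 18563, chromosome 19, 4510472 to 4621752) was at 12.63, 12.56, 12.65 and 12.68 in the HFD libraries and 12.76, 12.97, 12.64 and 13.13 in the ND libraries. The HFD libraries spanned a narrow band, with ND19 inside it and the other ND libraries above it. The difference was -0.24 ± 0.12 (SE; limma adjusted p = 0.503), from 12.63 ± 0.05 in HFD and 12.87 ± 0.22 in ND (SD, n = 4 each). Pdk2 (Gene ID 18604, chromosome 11, 95026258 to 95041371) was at 9.96, 9.98, 10.11 and 9.88 in the HFD libraries and 10.08, 10.06, 10.38 and 10.37 in the ND libraries. HFD26 lay above ND15.17.18 and ND16, and the other HFD libraries were below all ND libraries, for a difference of -0.24 ± 0.12 (SE; limma adjusted p = 0.506). Pdk1 (Gene ID 228026, chromosome 2, 71873215 to 71903858) was at 10.13, 10.06, 10.26 and 10.19 in the HFD libraries and 10.07, 10.20, 10.22 and 10.11 in the ND libraries, so the diets covered the same band. Its difference was 0.01 ± 0.10 (SE; limma adjusted p = 0.979), with the narrowest error of the 41.

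Pdhb (Gene ID 68263, chromosome 14, 8165991 to 8173303) was at 9.34, 9.43, 9.70 and 9.60 in the HFD libraries and 9.73, 9.76, 9.61 and 9.57 in the ND libraries. HFD22 and HFD23 lay below all ND libraries and the others did not, for a difference of -0.15 ± 0.12 (SE; limma adjusted p = 0.662). Between 35.5% and 57.0% of the signal of Pdhb and its copy Gm6123 stood in its own row. Its partner Pdha1 (Gene ID 18597, chromosome X, 160122219 to 160138430) was at 12.22, 12.23, 12.37 and 12.35 in the HFD libraries and 11.85, 12.40, 12.32 and 12.38 in the ND libraries. ND15.17.18 was the lowest and the other 7 libraries lay between 12.22 and 12.40, for a difference of 0.05 ± 0.13 (SE; limma adjusted p = 0.898). Dlat differed by 0.00 ± 0.12 and Dld by -0.04 ± 0.16 (SE). The carrier subunit gene Mpc2 (Gene ID 70456, chromosome 1, 165461260 to 165481218) was at 9.63, 9.41, 9.97 and 9.35 in the HFD libraries and 8.23, 9.18, 9.97 and 9.44 in the ND libraries. The ND libraries held both the lowest Mpc2 level, in ND15.17.18, and the highest, in ND19, for a difference of 0.39 ± 0.33 (SE; limma adjusted p = 0.680), or 0.03 without ND15.17.18. Mpc1 (Gene ID 55951, chromosome 17, 8283787 to 8297667) was at 7.87, 8.13, 8.21 and 7.97 in the HFD libraries and 7.33, 8.20, 8.07 and 8.51 in the ND libraries. ND15.17.18 was again the lowest and ND20 the highest, and Mpc1 differed by 0.02 ± 0.24 (SE; limma adjusted p = 0.985).

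The citric acid cycle was led by Mdh2, Ogdh and Mdh1. Per kilobase, the mitochondrial malate dehydrogenase gene Mdh2 was at 11.98, Ogdh, the E1 subunit of the oxoglutarate dehydrogenase complex, at 11.92 and the cytosolic malate dehydrogenase gene Mdh1 at 11.89, all with overlapping ranges. Idh2, the mitochondrial NADP-dependent isocitrate dehydrogenase, was at 11.49 and Cs, citrate synthase, at 11.13. Of the NAD-dependent isocitrate dehydrogenase, the subunit gene Idh3b was at 10.93, above Idh3a at 9.43 and Idh3g at 9.37. The succinyl-CoA ligase genes were at 10.85 for the shared alpha subunit (Suclg1), 8.90 for the GTP-forming beta subunit (Suclg2) and 8.69 for the ATP-forming one (Sucla2). Between them stood Dlst, the E2 subunit of the oxoglutarate complex, at 10.62, Fh1, fumarase, at 10.27, and Idh1, the cytosolic isocitrate dehydrogenase, at 9.64.

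Of the 14 cycle members 0 were called, 10 differences were positive and 4 negative, and the median was 0.14, or -0.06 without ND15.17.18. Ogdh (Gene ID 18293, chromosome 11, 6291597 to 6359094) was at 13.80, 13.65, 13.82 and 13.99 in the HFD libraries and 14.14, 14.42, 13.81 and 14.09 in the ND libraries. ND19 lay among the HFD libraries and the other 3 ND libraries above them. The difference was -0.30 ± 0.14 (SE; limma adjusted p = 0.483), from 13.82 ± 0.14 in HFD and 14.12 ± 0.25 in ND (SD, n = 4 each). Sucla2 (Gene ID 20916, chromosome 14, 73552786 to 73596144) was at 9.64, 9.79, 9.77 and 9.83 in the HFD libraries and 10.16, 9.91, 9.80 and 9.90 in the ND libraries. Here too ND19 alone of the ND libraries fell within the HFD range, for a difference of -0.18 ± 0.11 (SE; limma adjusted p = 0.592). Hk1, Pcx, Ogdh and Sucla2 thus share 1 layout, noticed after their values were seen: 3 ND libraries above all HFD libraries and ND19 among the latter.

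Members with a positive difference in the cycle included Suclg1 and subunits of the NAD-dependent isocitrate dehydrogenase, a rate-setting enzyme of the cycle in textbook accounts. Suclg1 (Gene ID 56451, chromosome 6, 73248505 to 73276907) was at 11.46, 11.61, 11.90 and 11.50 in the HFD libraries and 10.98, 11.13, 11.40 and 11.66 in the ND libraries. ND20 lay among the HFD libraries and the other ND libraries below them, for a difference of 0.32 ± 0.16 (SE; limma adjusted p = 0.517). Idh3b (Gene ID 170718, chromosome 2, 130279309 to 130284451) was at 11.53, 11.82, 12.08 and 11.62 in the HFD libraries and 11.16, 11.47, 11.62 and 11.66 in the ND libraries. ND15.17.18 and ND16 were the lowest, and ND19 and ND20 lay among the HFD libraries, for a difference of 0.28 ± 0.15 (SE; limma adjusted p = 0.539). Idh3g (Gene ID 15929, chromosome X, 73778963 to 73786897) was at 9.85, 9.72, 10.33 and 9.77 in the HFD libraries and 9.37, 9.71, 9.72 and 9.75 in the ND libraries. HFD26 was the highest, HFD23 lay below ND20, and the difference was 0.28 ± 0.16 (SE; limma adjusted p = 0.561). The remaining cycle members, Cs, Idh1, Idh2, Idh3a, Dlst, Suclg2, Fh1, Mdh1 and Mdh2, had differences from -0.03 (Dlst) to 0.23 (Mdh2). Without ND15.17.18 the difference was 0.19 for Suclg1, 0.15 for Idh3b, 0.17 for Idh3g and 0.03 for Mdh2. Suclg2 and Cs have copies, and their own rows held 33.7% to 47.7% and 69.5% to 84.1% of the summed signal.

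The balance of RNA between 2 members was read as their log2 ratio inside a library. The scaling of the library reaches this quantity only through the pseudocount. The pairs are isozymes, subunits of 1 complex or enzymes of a branch, and neither protein nor activity was measured. Per kilobase, Aldoa exceeded Aldoc 185-fold and Eno1 exceeded Eno2 172-fold on the geometric mean of the 8 libraries. Hk1 exceeded Hk2 5.27-fold, Ldha exceeded Ldhb 4.53-fold, Pfkl exceeded Pfkp 2.45-fold and Pfkl exceeded Pfkm 2.2-fold. Idh1 stood at 0.279 times Idh2, while Mdh1 stood at 0.944 times Mdh2, with library values on both sides of parity. With copies summed, Eno1 exceeded Eno2 647-fold and Aldoa exceeded Aldoc 289-fold, while Ldha exceeded Ldhb 1.51-fold. The log2 ratio of Ldha to Ldhb, not divided by length, was then 1.03 in place of 2.68 in HFD and 1.03 in place of 2.55 in ND.

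Of 13 such ratios 0 differed between the diets after adjustment, and in all 13 the diets overlapped. The exact test over 70 divisions of the libraries cannot give a p below 0.0286. After adjustment over 13 ratios, no ratio could therefore pass on its own, however large its shift. The lack of a call was nearly fixed in advance and does not show that the ratios are equal. The ratios below are not divided by length, which cancels in the difference between diets. The log2 ratio of Pdk1 to Pdk2 was 0.17, 0.09, 0.15 and 0.31 in the HFD libraries and -0.01, 0.15, -0.16 and -0.26 in the ND libraries. ND16 lay among the HFD libraries and the other ND libraries were lower, for a difference of 0.25 (exact two-sided permutation p = 0.0571, adjusted p = 0.557). The log2 ratio of Pcx to Pdha1, which sets carboxylation beside decarboxylation of pyruvate, was 0.42, 0.33, 0.28 and 0.34 in the HFD libraries and 0.92, 0.56, 0.32 and 0.75 in the ND libraries. The HFD libraries lay close together, with ND19 among them and the rest of ND above, for a difference of -0.30 (exact two-sided permutation p = 0.114, adjusted p = 0.557).

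The log2 ratio of Pfkl to Pfkm was 1.43, 1.75, 1.76 and 1.45 in the HFD libraries and 1.67, 1.28, 1.40 and 1.16 in the ND libraries. ND15.17.18 lay among the HFD libraries and the other ND libraries below them, for a difference of 0.22 (exact two-sided permutation p = 0.143, adjusted p = 0.557). The log2 ratio of Mpc1 to Mpc2 was -1.76, -1.28, -1.76 and -1.38 in the HFD libraries and -0.89, -0.98, -1.90 and -0.93 in the ND libraries. ND19 was the lowest of the 8 and the other ND libraries were the highest, for a difference of -0.37 (exact two-sided permutation p = 0.229, adjusted p = 0.557). The other 9 ratios had differences from -0.39 (Eno1 to Eno2) to 0.36 (Pfkl to Pfkp), all with an adjusted p of 0.557 or 0.571 from the same exact permutation test.

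**Figure D4:**
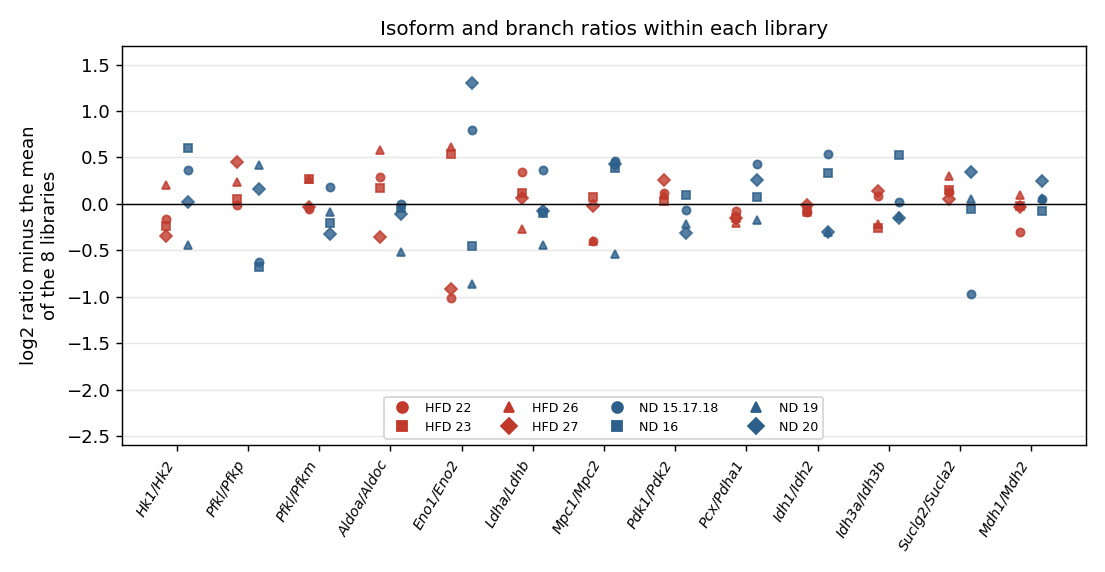
Log2 ratio of 13 pairs of members in each library, minus the mean of the 8 libraries (y axis, log2), HFD red and ND blue. HFD and ND marks overlap in every pair, and the widest spread is that of Eno1 to Eno2.

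The ND15.17.18 library was the lowest of the 8 for 26 of the 41 members (63.4%), beside 27.2% of the 16465 tested rows at or above the lowest member level. By stage these were 10 of 18 in glycolysis, 5 of 9 in pyruvate entry and 11 of 14 in the cycle. Its median deviation from the members' means was -0.39, or -0.44 in the cycle, while the other 7 libraries lay between -0.09 and 0.19. The SD between libraries was lower in HFD for 36 of 41 members (87.8%), with medians of 0.150 in HFD and 0.283 in ND, and it was lower for 74.2% of the same 16465 rows. Against the 3 ND libraries left without ND15.17.18, it was lower for 28 members (68.3%), beside 63.6% of those rows.

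**Figure D5:**
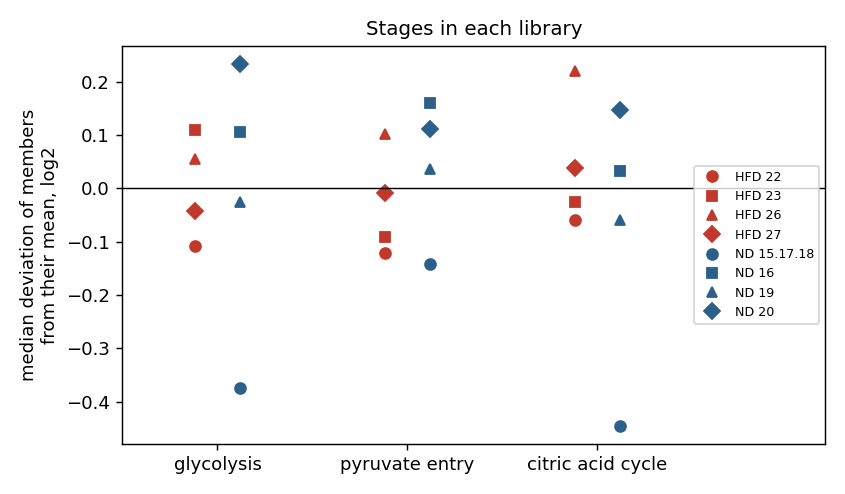
Median deviation of the members of each stage from their own 8-library means (y axis, log2), one mark per library, HFD red and ND blue. ND15.17.18 lies lowest in all 3 stages, at -0.37, -0.14 and -0.44, and HFD and ND marks overlap in each.

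Differences tended to be higher for shorter transcripts. Across the 41 members the Spearman correlation between the difference and transcript length was -0.38, and across 13241 protein-coding rows it was -0.31. Without ND15.17.18 both came to -0.21. These are correlations across genes that share the same 8 libraries, and genes are not independent replicates. The 20 shorter members had a median difference of 0.10 with 15 positive, and the 21 longer ones a median of -0.01 with 10 positive. Without ND15.17.18 the medians were -0.06 with 8 positive and -0.12 with 4 positive. The part of transcript length in the differences was not tested.

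Promoters of the glycolytic genes are known to hold sites for the hypoxia-inducible factors, whose core reads ACGTG or GCGTG. Of 40 members with a RefSeq promoter (GRCm38.p6, 250 bases before each annotated start, both strands), 14 held ACGTG (35%), against 18.5% of 27025 genes in the table. By stage it was 8 of 18 in glycolysis, 3 of 9 in pyruvate entry and 3 of 13 in the cycle. GCGTG was found in 23 of the 40 (57.5%), against 30.9% of all genes. CACGTG, the E-box, which contains ACGTG on both strands, was in 5 of the 40 (12.5%), against 6.86%. TCAAGGTCA, bound by estrogen-related receptors, was in 0 of the 40, against 0.422%. A sequence this rare would be missing from most sets of 40 genes, so its absence says nothing about these receptors. A match of letters is not a bound site. The comparison took no account of base composition, and what lies behind the higher shares of the members was not tested. Several members have more than 1 start, so the 40 members had 61 windows, beside 32851 for the 27025 genes. More windows per gene raise the share of genes with a match. By window, ACGTG was in 34.4% of the members' windows against 16.6%, and GCGTG in 49.2% against 28.2%. Windows of the same gene can overlap, so this share can count the same site more than once. All windows of Ogdh held ACGTG, several of them overlapping, and in the cycle 8 of 19 windows held it, from 3 genes. The window of Ldha at chr7:46845554-46845803 (plus strand, GRCm38.p6) held the most, and is shown with ACGTG on either strand in capitals, which takes in 2 copies of CACGTG.
Ldha: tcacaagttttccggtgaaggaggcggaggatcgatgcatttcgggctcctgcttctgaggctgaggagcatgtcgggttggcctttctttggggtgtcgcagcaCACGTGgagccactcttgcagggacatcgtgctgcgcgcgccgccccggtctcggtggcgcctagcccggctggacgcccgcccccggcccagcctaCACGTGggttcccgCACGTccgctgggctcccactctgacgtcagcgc

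Other genes of the same pathways were taken as 63 genes in 9 lists, from transporters to transcriptional regulators, and all 63 were tested. limma called 0 of them, with 4 higher and 5 lower at an unadjusted p under 0.05, where all rows had 6.52% and 4.03%. HFD lay above ND without overlap for 2 (4.76% of all rows) and below for 3 (3.09% of all rows). The smallest adjusted p belonged to Ppargc1b, a coactivator of mitochondrial gene expression. Its level was 9.77, 9.95, 9.91 and 9.94 in the HFD libraries and 10.83, 10.44, 10.13 and 10.42 in the ND libraries. Every HFD library lay below every ND library, for a difference of -0.56 ± 0.15 (SE; limma adjusted p = 0.253); on the deposited scale the difference was 0.29. Its relative Ppargc1a differed by -0.43 ± 0.28 (SE), with overlapping groups.

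Epas1, which encodes the hypoxia-inducible factor HIF-2 alpha, was at 9.94, 10.005, 9.84 and 10.01 in the HFD libraries and 10.50, 10.17, 10.23 and 10.32 in the ND libraries. The diets did not overlap, with HFD the lower, for a difference of -0.35 ± 0.11 (SE; limma adjusted p = 0.313) and of 0.50 on the deposited scale. Hif1a differed by 0.20 ± 0.17 (SE). Pdpr, the regulatory subunit of the phosphatase that reactivates pyruvate dehydrogenase, was at 8.72, 8.44, 8.87 and 9.04 in the HFD libraries and 9.86, 9.28, 9.20 and 9.06 in the ND libraries. Its diets did not overlap either, for a difference of -0.59 ± 0.20 (SE; limma adjusted p = 0.353) and of 0.27 on the deposited scale. Pfkfb2, which makes and removes the phosphofructokinase activator fructose 2,6-bisphosphate, was at 10.67, 10.68, 10.40 and 10.49 in the HFD libraries and 11.19, 11.06, 10.67 and 10.76 in the ND libraries. HFD22 and HFD23 lay just above ND19 and the groups overlapped there, for a difference of -0.36 ± 0.14 (SE; limma adjusted p = 0.411).

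In the other direction, Bsg, the basigin chaperone of lactate transporters, was at 13.32, 13.63, 13.68 and 13.24 in the HFD libraries and 13.22, 13.09, 13.21 and 13.17 in the ND libraries. All HFD libraries lay above all ND libraries, for a difference of 0.30 ± 0.12 (SE; limma adjusted p = 0.422), while the lactate transporter genes Slc16a1 and Slc16a3 differed by -0.12 ± 0.15 and 0.10 ± 0.48 (SE). G6pc3, a ubiquitous glucose 6-phosphatase, was at 9.58, 9.63, 9.77 and 9.52 in the HFD libraries and 9.20, 9.25, 9.36 and 9.54 in the ND libraries. ND20 alone of the ND libraries fell within the HFD range, for a difference of 0.29 ± 0.12 (SE; limma adjusted p = 0.449). Slc2a3, the GLUT3 transporter known from neurons and leukocytes, was at 3.60, 5.87, 4.27 and 4.95 in the HFD libraries and 0, 2.75, 3.93 and 3.09 in the ND libraries. It was near the floor, and its difference of 2.23 ± 0.94 (SE; limma adjusted p = 0.449) became 1.41 without ND15.17.18. Hk3, the hexokinase of myeloid cells, was at 2.54, 3.74, 2.49 and 3.15 in the HFD libraries and 0, 3.13, 0 and 1.002 in the ND libraries. ND15.17.18 and ND19 were listed at 0, and the difference was 1.95 ± 0.84 (SE; limma adjusted p = 0.459).

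The 7 other enzymes of the citric acid cycle, aconitases and succinate dehydrogenase subunits among them, had 6 positive differences and a median of 0.21. Without ND15.17.18 they had 3 positive differences and a median of -0.00045. The 13 genes of citrate and malate shuttles had a median of 0.05, the 6 genes of gluconeogenesis 0.31, the 6 other subunits and regulators of pyruvate dehydrogenase -0.14 and the 8 transcriptional regulators -0.12, beside 0.12 over all rows. Without ND15.17.18 these 4 medians were -0.05, 0.29, -0.15 and -0.16, beside 0.06 over all rows. Of the gluconeogenesis genes, Fbp1, Pck1 and G6pc were near the floor, with differences of 0.02 ± 1.10, 0.73 ± 0.68 and 0.56 ± 0.71 (SE). Pdk4, the kinase best known to rise with fat oxidation, differed by -0.08 ± 0.22 (SE; limma adjusted p = 0.911).

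The cell makeup of the libraries bears on all of these values, since in bulk RNA fewer cells of a type and less RNA per cell cannot be told apart. Of 12 marker lists 0 differed between the diets after adjustment, which no list could pass on its own in this exact test. The 11 parietal cell markers had a mean level of 11.91 to 12.31 in HFD and 11.91 to 12.47 in ND (exact two-sided permutation p = 0.486). The 8 smooth muscle markers were at 8.52 to 9.07 in HFD and 5.98 to 7.997 in ND, the 7 chief cell markers at 12.12 to 12.97 and 11.02 to 11.78, and the 6 leukocyte markers at 3.49 to 4.58 and 3.11 to 3.47. The difference was positive for 8 of the 8, 7 of the 7 and 5 of the 6 markers. Each of these 3 lists had an exact two-sided permutation p of 0.0286, the smallest possible, and an adjusted p of 0.114. The largest difference was that of the 5 forestomach squamous markers, positive for 5 of the 5, with means of 7.93 to 9.53 in HFD and 4.30 to 8.25 in ND (exact two-sided permutation p = 0.114, adjusted p = 0.274). The 6 skeletal muscle markers, positive for 6 of the 6, were at 3.797 to 4.75 and 2.40 to 4.14 (exact two-sided permutation p = 0.0571, adjusted p = 0.171). Of the defining leukocyte markers, Cd3e was listed at 0 in ND15.17.18, ND19 and ND20, and Lyz2 in ND15.17.18. The part of these cells in the differences of the 41 members was not tested.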

How the data were processed

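Total RNA of the sorted cells was freed of ribosomal RNA and sequenced on an Ion library, per the labels' protocols. Each library has a table of 38920 rows with 1 column that the authors deposited as log2 values, scaled to a common total; the sources used here give no normalization method or aligner. The submitters' processing notes name mm10 and bedtools 2.17.0. The values are not counts, and 25.1% to 35.0% of the lower ones were whole multiples of an estimated read (within 0.01), so no count model was fitted.

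Linear values were divided by a median ratio over the 11115 rows of at least 30 in all 8 libraries. Rows that reached 1 in 4 or more libraries, 27401 in all, entered limma 3.58.1 (R 4.3.3, trend and robust) on log2(value + 1), with the diet as the only term and Benjamini-Hochberg adjustment at 0.05. The pseudocount shrinks the differences of low genes. The fit was tried on simulated rows with independent noise. The shifts set there were far larger than the members' differences, so that trial does not show whether differences that small would be called. Coordinates are those of RefSeq GRCm38.p6, the assembly of mm10, counted from 1, and transcript length is that of the principal GENCODE vM21 transcript. Copies were found with blastn 2.17.0. Ratios and marker lists were compared by exact two-sided permutation over 70 divisions.

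The members and lists were chosen with earlier results of these data known. Values per library are given for the 5 members of each stage with the smallest p, for both genes of the 4 ratios with the smallest p (ties by the larger difference, which put Mpc1 to Mpc2 before Aldoa to Aldoc), for the 4 other pathway genes with the smallest p in each direction, and for Ldha. No replicate number is shared between diets, so nothing was paired. Other scalings, pseudocounts, filters, the fit without the robust option and leaving out each library were tried. The marker Hbb-bt was not analysed here.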

Additional observations from a re-analysis of the deposited data

Results flagged for a closer look

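The level of each member, of each named pathway gene and of each ratio was examined within each diet for 1 library far from the other 3, by the size of its gap to the nearest relative to the group's range. This was so in 5 of 124 groups examined, 4 of 82 for members, 0 of 16 for pathway genes and 1 of 26 for ratios. Chance flags about 1 in 20 groups, and members of 1 library are not independent of each other.

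All 5 were in ND. The library ND15.17.18 stood apart for Ldhb, at 9.50 against 10.13 in the nearest ND library, for Pdha1, at 11.85 against 12.32, and for Idh3g, at 9.37 against 9.71. It was the lowest of its group in all 3. ND16 stood apart for Idh1, the cytosolic isocitrate dehydrogenase, at 11.19 against 10.73. ND19 stood apart in the log2 ratio of the pyruvate carrier subunits Mpc1 and Mpc2, at -1.90 against -0.98.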

How the results depend on the processing

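Over all rows, 1 was called higher and 2 lower. The deposited scale gave 13 higher and 3 lower, no filter on low values 0 and 0, and a minimum of 30 in all 8 libraries 1 and 1. With 1 library left out the counts ran from 0 to 2 higher and from 0 to 2 lower. Without ND15.17.18, ND19 or ND20 they were 0 and 0, with 2385, 3577 and 3090 rows at an unadjusted p under 0.05 by limma, and without HFD27 or ND16 the higher count was 0 or 2. Fewer samples enter such fits, and the cause was not tested otherwise.

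The members had 0 calls under every alternative run, and their smallest limma adjusted p over these was 0.210 (Hk1 without ND19). On the deposited scale the medians of glycolysis, pyruvate entry and the citric acid cycle were 0.88, 0.86 and 0.99, in place of 0.03, 0.0032 and 0.14; that scale moves the median of all rows from 0.12 to 0.90. With 1 library left out the medians ran from -0.10 to 0.08, from -0.16 to 0.04 and from -0.06 to 0.24. The lowest value of each was that without ND15.17.18 (-0.062 in the cycle). Of the 41 members, 16 had the other sign on the deposited scale, 5 after quantile normalization, 3 with copies summed and 0 under other pseudocounts, no filter and the fit without the robust option. The stricter filter kept 39 members, of which 0 changed sign. Of the single genes and ratios named, 0 changed their side of the threshold in 570 recomputations. A ratio could not pass the threshold on its own, so for the ratios this was nearly fixed in advance. No paired analysis was possible because the diets share no replicate number.

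The depth is an estimate, so no counting interval is given, and rows near the floor, such as Eno2, Slc2a3 and Hk3, are the least precise.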

Other observations

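Among the other genes of these pathways, a few outside the rule for named genes had uneven levels and were chosen after their values were seen. Ldhc, the testis form of lactate dehydrogenase and the neighbour of Ldha on chromosome 7 (46861263 to 46878147), was at 8.05, 1.41, 10.30 and 7.77 in the HFD libraries and 13.09, 9.51, 9.36 and 6.40 in the ND libraries. It was highest in ND15.17.18 and near the floor in HFD23. Its difference of -2.71 ± 2.11 (SE; limma adjusted p = 0.659) was smaller than 2 of its standard errors. Pdhx, the E3-binding protein of pyruvate dehydrogenase, was at 9.11, 9.13, 9.75 and 9.32 in the HFD libraries and 11.55, 9.87, 9.60 and 9.37 in the ND libraries. ND15.17.18 stood above the other 7 libraries, while for Pdha1 the same library was the lowest of the 8.

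Isozymes known from liver and muscle were also measured. Pklr, the liver and red cell pyruvate kinase, was at 9.66 to 10.27 over the 8 libraries and Fbp2, the muscle fructose bisphosphatase, at 9.83 to 10.38, not divided by length. Pck1 and G6pc, enzymes of hepatic glucose output, were at 1.81 to 3.68 and 0 to 2.20. Ldhd, the D-lactate dehydrogenase, was at 11.38 to 11.88, and its difference of 0.19 ± 0.11 (SE; limma adjusted p = 0.557) did not pass the test. Aco1, the cytosolic aconitase and iron regulatory protein, was the other of the 2 pathway genes whose HFD libraries all lay above ND, at 11.55, 11.48, 11.69 and 11.60 in the HFD libraries and 11.48, 11.35, 11.23 and 11.44 in the ND libraries, with a difference of 0.21 ± 0.10 (SE; limma adjusted p = 0.496).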
